A study of Saccharomyces cerevisiae with 26 samples.

Results

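The genes described here are the 9 cyclin genes whose products direct the kinase Cdc28 through the budding yeast cell cycle (CLN1, CLN2, CLN3 and CLB1 to CLB6) and SIC1, which encodes an inhibitor of that kinase. They were chosen by gene symbol. All 10 were measured, each by 1 probe set, and they are 10 of the 5445 genes tested. None of the 10 probe set identifiers ends in the x_at or s_at that Affymetrix gives to probes shared by several transcripts. The genes are YAL040C (CLN3), YMR199W (CLN1), YPL256C (CLN2), YPR120C (CLB5), YGR109C (CLB6), YDL155W (CLB3), YLR210W (CLB4), YGR108W (CLB1), YPR119W (CLB2) and YLR079W (SIC1).

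Messenger RNA of the haploid laboratory yeast S288C, mating type alpha, was measured on 26 Affymetrix yeast arrays in 9 groups. Immobilized cells, held in 3 mm calcium alginate beads in a packed reactor fed at 6 L/h with medium of 100 g/L glucose, were sampled at day 1, day 3 and day 5, with 4 arrays for each day, and at day 10 and day 17, with 3. Day 0 (2 arrays) is placed before immobilization by the sample titles and just after it by the source names, and its RNA is described as extracted from beads. Free cells came from a chemostat without oxygen, in which medium with 1 g/L glucose was replaced at 0.15 volumes per h (2 arrays at 72 h) and from an anaerobic batch culture begun with 10 g/L glucose, taken at 72 h in stationary phase (2 arrays) and at 12 h in log phase (2 arrays). The cultures are labelled as run at 32.5 °C and pH 5.5. Whether the bead reactor was anaerobic is not given in the labels. Bead RNA and free-cell RNA were extracted by different methods, so for beads and day 0 against free cells the culture and the extraction cannot be told apart. Separate cultures behind the arrays of a group are not stated in the labels, and the p-values therefore cover the spread between arrays alone, which could be technical. The series concerns yeast that is well fed yet hardly divides, and the comparisons ask how its cyclin and SIC1 transcripts stand beside those of growing, slowly growing and starved free cells.

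As background, Cdc28 has no activity without a cyclin, and cyclin genes are transcribed in different windows of the cycle, some of them together. Cln3 acts in G1 and sets off the transcription factors SBF and MBF, which transcribe CLN1, CLN2, CLB5 and CLB6; Cln1 and Cln2 drive budding, Clb5 and Clb6 start DNA replication, Clb3 and Clb4 act in S phase and on the spindle, and Clb1 and Clb2 drive mitosis. Sic1 binds Clb-Cdc28 and holds it inactive from the end of mitosis until the Cln kinases mark Sic1 for destruction, and its gene is transcribed by Swi5 as cells leave mitosis. Yeast that runs out of nutrients typically stops dividing in G1, with few transcripts of the later cyclins.

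The deposited value of a gene is a ratio to its own median over the 26 arrays, given below as log2. It says nothing of which gene is the more abundant, and because 18 of the 26 arrays are of immobilized cells, 0 on this scale lies near the immobilized level. Changes are log2 differences between group means ± SE from limma, with the mean of days 1, 3, 5, 10 and 17 standing for immobilized cells. The threshold for a call was 0.05 on the adjusted p together with a difference of 2-fold or more. In RNA of a whole culture, fewer cells in a phase of the cycle and less of a transcript per cell cannot be told apart. Bead RNA differed from free-cell RNA in the mean difference between the 3′ and 5′ probe sets of 6 control genes, a sign of RNA quality, which ran from -0.36 to 0.61 on immobilized arrays and from -0.51 to -0.04 on free-cell arrays. Genes of the strain's mating type could not be used to check the label, since a ratio to the gene's own median shows no presence or absence.

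Immobilized cells had less transcript of the mitotic cyclins CLB2 and CLB1, the S-phase cyclin CLB6 and the G1 cyclins CLN1 and CLN2 than log-phase cells, by 2.49-fold to 15.6-fold. The smallest of these falls, that of CLN2, lay close to the threshold and lost its call in 16 of 35 alternative settings. Of the 10 genes 5 fell and 0 rose, where 14.7% of all genes tested fell, 15.9% rose and 30.5% were called in either direction. The median change of the 10 genes was -1.17, against -0.01 over all genes. Arrays of immobilized and log-phase cells did not overlap for CLN1, CLB6, CLB4 and CLB2, nor for 29.1% of all genes, in either direction. Against the chemostat, 4 of the 10 fell (CLB2, CLN1, CLB1 and CLB6) and 0 rose, where 9.94% of genes fell and 9.55% rose, with a median of -0.78 against -0.03. Arrays did not overlap in this comparison for CLN1, CLB6 and CLB2, nor for 19.1% of all genes. Against stationary phase, 1 of the 10 fell (SIC1) and 1 rose (CLN3), where 14.4% of genes fell and 11.8% rose, with a median of 0.00 against -0.06. Arrays did not overlap there for SIC1, nor for 28.7% of all genes. These comparisons share the 18 immobilized arrays.

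**Figure D1:**
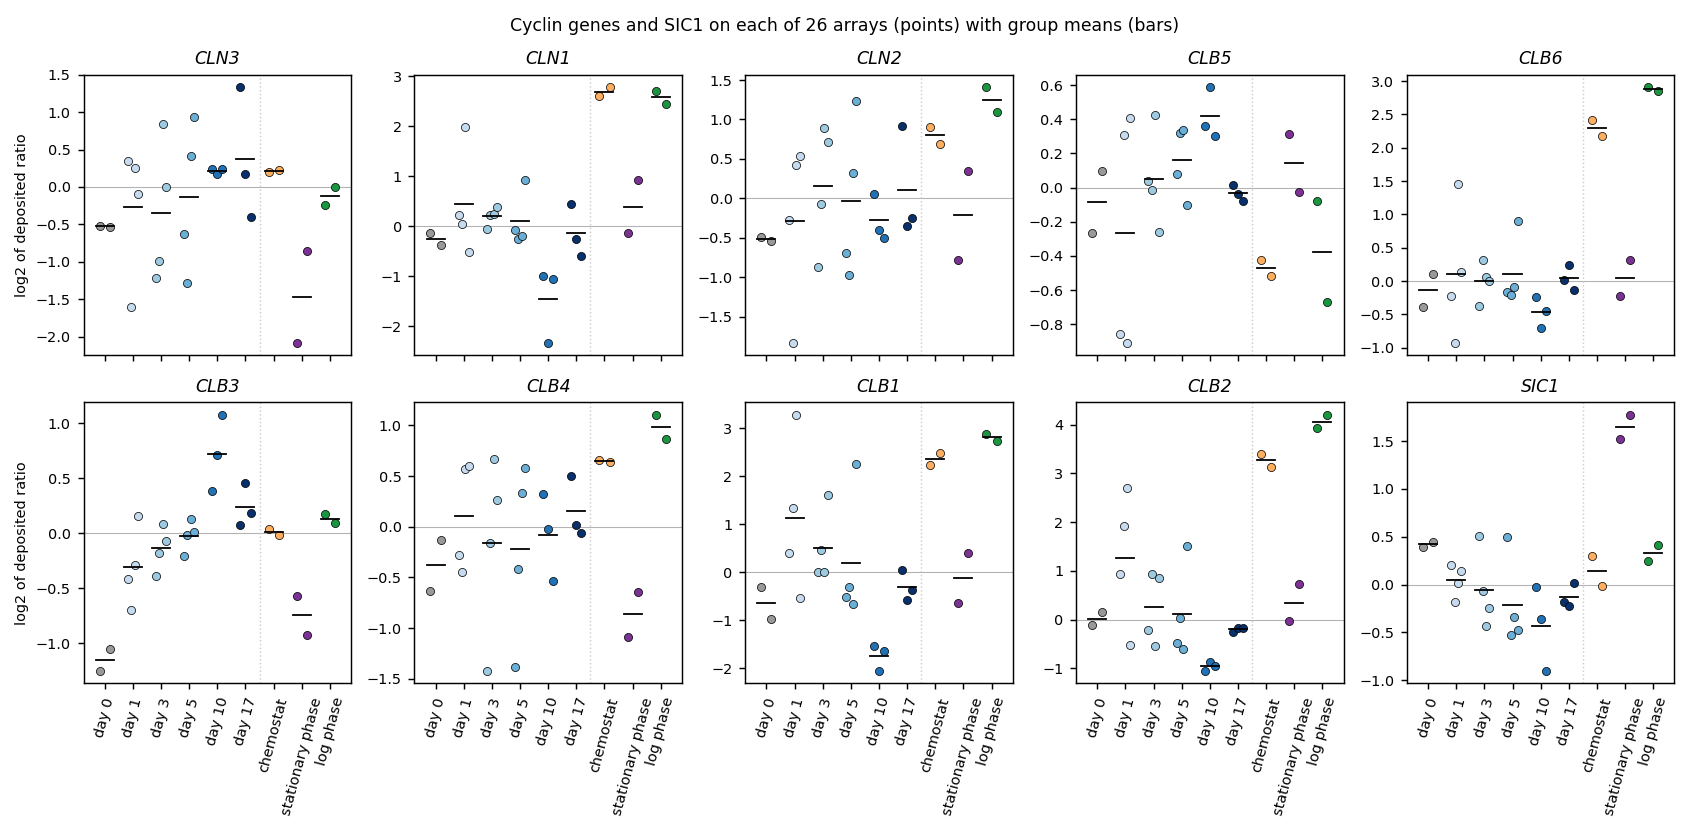
Log2 of the deposited ratio (vertical axis, a separate range in each panel) of the 10 genes on each of 26 arrays, by group, with points for arrays and bars for group means. CLN1, CLB6, CLB1 and CLB2 stand high in the chemostat and in log phase, SIC1 stands high on the 2 stationary-phase arrays, and CLB5 is the cyclin whose chemostat and log-phase means lie lowest of the 9 groups.

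Of the G1 cyclins, CLN1 and CLN2 fell against log phase and CLN3 was not called. CLN3 lay between -1.60 and 1.33 on the 18 immobilized arrays, with a median of 0.18. Its log2 ratio was 0.20 and 0.23 in the chemostat, -2.08 and -0.85 in stationary phase and -0.24 and 0.00 in log phase. Both stationary-phase arrays are low, and immobilized arrays lie on both sides of the log-phase and chemostat arrays. CLN3 was higher in immobilized than in stationary-phase cells, by 1.43 ± 0.54 (adjusted p = 0.0359), and 14 of 18 immobilized arrays lay above both stationary-phase arrays. That call rests on stationary phase replicate 1: without it the difference was 0.82 (adjusted p = 0.464). It was also lost with quantile normalization repeated over the genes (1.07, adjusted p = 0.300) and with a model of the compared groups alone (adjusted p = 0.0588). Against log phase it stood at 0.08 (95% interval -1.04 to 1.20) and against the chemostat at -0.25 (-1.37 to 0.87), so a change of 2-fold in either direction lies within both intervals.

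CLN1 ran from -2.33 to 1.98 in immobilized cells, with a median of -0.07. It stood at 2.61 and 2.78 in the chemostat, -0.14 and 0.92 in stationary phase and 2.71 and 2.44 in log phase. All 18 immobilized arrays lay below every chemostat and log-phase array. CLN1 fell in immobilized cells, with changes of -2.75 ± 0.44 against log phase (adjusted p = 5.09e-05) and -2.87 ± 0.44 against the chemostat (adjusted p = 8.1e-05). Against stationary phase the difference was -0.57 (95% interval -1.48 to 0.35) and was not called.

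CLN2, the close relative of CLN1, ran from -1.83 to 1.24 in immobilized cells, with a median of -0.16. It stood at 0.90 and 0.70 in the chemostat, -0.78 and 0.34 in stationary phase and 1.41 and 1.10 in log phase. On 17 of 18 immobilized arrays it lay below both log-phase arrays. CLN2 fell by 1.32 ± 0.54 against log phase (adjusted p = 0.0471), close to the threshold. The call was lost in 16 of 35 alternative settings, among them without either log-phase replicate (adjusted p = 0.266 without replicate 1 and 0.141 without replicate 2). It was also lost without any of day 1 replicate 1, day 3 replicate 2, day 5 replicates 1 and 2, day 10 replicates 2 and 3, and day 17 replicates 2 and 3 (adjusted p between 0.0512 and 0.0609). Against the chemostat it stood at -0.86 (95% interval -1.98 to 0.25) and against stationary phase at 0.15 (-0.97 to 1.27).

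Of the S-phase cyclins, CLB6 fell and CLB5 was not called. CLB6 lay between -0.92 and 1.46 in immobilized cells, with a median of -0.11, against 2.42 and 2.18 in the chemostat, -0.22 and 0.32 in stationary phase and 2.91 and 2.85 in log phase. All 18 immobilized arrays were below every chemostat and log-phase array. CLB6 fell 7.55-fold against log phase (log2 -2.92 ± 0.36, adjusted p = 3e-06) and 5.06-fold against the chemostat (-2.34 ± 0.36, adjusted p = 9.36e-05). Against stationary phase the difference was -0.09 (95% interval -0.84 to 0.67).

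CLB5 lay between -0.91 and 0.59 in immobilized cells, with a median of 0.06, against -0.42 and -0.52 in the chemostat, 0.31 and -0.03 in stationary phase and -0.08 and -0.67 in log phase. Here 16 of 18 immobilized arrays lay above both chemostat arrays and 14 above both log-phase arrays. The differences were 0.44 ± 0.27 against log phase (adjusted p = 0.179), 0.54 ± 0.27 against the chemostat (adjusted p = 0.129) and -0.08 ± 0.27 against stationary phase (adjusted p = 0.838), and none was called. The 95% interval against log phase, -0.12 to 1.00, leaves out a fall of the size seen for CLB6. CLB5 also had the smallest SD of the 10 genes over the 26 arrays, 0.40. A ratio does not show whether a probe set lies near the background, where a fall could not be seen, and this was not tested.

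CLB3 and CLB4, which act in S phase and on the spindle, were not called against log phase. CLB3 ran from -0.70 to 1.07 in immobilized cells, with a median of 0.04, against 0.04 and -0.02 in the chemostat, -0.57 and -0.92 in stationary phase and 0.17 and 0.09 in log phase. Its differences against log phase (-0.03, 95% interval -0.44 to 0.37) and the chemostat (0.09, -0.32 to 0.49) had intervals that leave out a 2-fold change. Against stationary phase CLB3 differed by 0.84 ± 0.19 (adjusted p = 0.00146), which is under the 2-fold minimum, and 17 of 18 immobilized arrays lay above both stationary-phase arrays. Without stationary phase replicate 1 the difference was 1.02 (adjusted p = 0.0088) and passed.

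CLB4 ran from -1.42 to 0.67 in immobilized cells, with a median of 0.00, against 0.66 and 0.64 in the chemostat, -1.09 and -0.64 in stationary phase and 1.10 and 0.87 in log phase. All 18 immobilized arrays lay below both log-phase arrays. The difference against log phase, -1.02 ± 0.43, just missed the threshold (adjusted p = 0.0533), and it passed in 11 of 35 alternative settings. These settings are not all separate: the replicate block and the immobilized arrays numbered 1 and 2 alone gave the same difference, -1.31. The 11 include leaving out day 1 replicate 3 or 4, day 3 replicate 3, day 5 replicate 3 or 4, or day 10 replicate 1 (differences of -1.05 to -1.08, adjusted p between 0.0355 and 0.0493). CLB4 stood at -0.69 ± 0.43 against the chemostat (adjusted p = 0.229) and at 0.83 ± 0.43 against stationary phase (adjusted p = 0.127).

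CLB2, a cyclin of mitosis, gave the widest difference of the 10 genes against log phase and against the chemostat. It lay between -1.05 and 2.70 in immobilized cells, with a median of -0.20. The log2 ratio was 3.39 and 3.14 in the chemostat, -0.03 and 0.72 in stationary phase and 3.92 and 4.20 in log phase. All 18 immobilized arrays were below every chemostat and log-phase array. CLB2 fell 15.6-fold against log phase (log2 -3.97 ± 0.54, adjusted p = 9.16e-06) and 9.02-fold against the chemostat (-3.17 ± 0.54, adjusted p = 0.000232). Against stationary phase it stood at -0.25 (95% interval -1.38 to 0.88).

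CLB1, the relative of CLB2, lay between -2.05 and 3.28 in immobilized cells, with a median of -0.15. It stood at 2.23 and 2.50 in the chemostat, -0.63 and 0.40 in stationary phase and 2.89 and 2.75 in log phase. The arrays overlap here, because day 1 replicate 3, at 3.28, was the highest of all 26, while the other 17 immobilized arrays lay below both log-phase arrays. CLB1 fell 7.25-fold against log phase (-2.86 ± 0.67, adjusted p = 0.00158) and 5.30-fold against the chemostat (-2.41 ± 0.67, adjusted p = 0.00898). The second of these calls needs both chemostat arrays: it stood at -2.54 without replicate 1 (adjusted p = 0.0901) and at -2.27 without replicate 2 (adjusted p = 0.109). With quantile normalization repeated over the genes CLB1 lost both calls (-2.22, adjusted p = 0.127, and -1.95, adjusted p = 0.176). Against stationary phase CLB1 stood at 0.07 (95% interval -1.32 to 1.47).

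**Figure D2:**
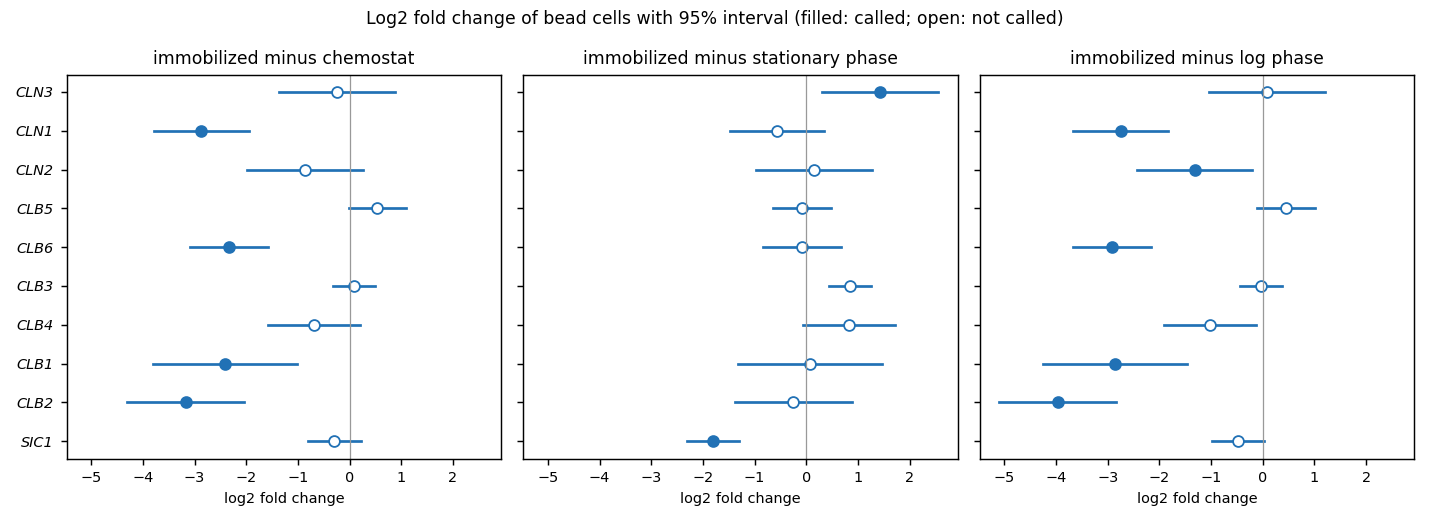
Log2 fold change of immobilized cells (mean of 5 days, 18 arrays) against the chemostat, stationary phase and log phase (2 arrays each) for the 10 genes, with 95% intervals from limma. Filled points were called (adjusted p under 0.05 and at least 2-fold), and the points of CLN1, CLB6, CLB1 and CLB2 lie left of 0 against the chemostat and log phase, while that of SIC1 does so against stationary phase.

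SIC1, the inhibitor of Clb-Cdc28, was highest in stationary phase. It lay between -0.90 and 0.51 in immobilized cells, with a median of -0.18, against 0.30 and -0.02 in the chemostat, 1.52 and 1.77 in stationary phase and 0.24 and 0.41 in log phase. Both stationary-phase arrays stand above all 24 others. SIC1 fell 3.49-fold in immobilized against stationary-phase cells (log2 -1.80 ± 0.24, adjusted p = 6.52e-06). Against log phase it stood at -0.48 ± 0.24 (adjusted p = 0.107) and against the chemostat at -0.29 ± 0.24 (adjusted p = 0.374), both uncalled. CLB2, whose difference was not called, averaged 0.09 in immobilized and 0.34 in stationary-phase cells, beside SIC1 means of -0.16 and 1.64. The 2 stationary-phase arrays also had high signal of the poly-A control RNAs added to the sample, at a mean of 2.55 against -0.39 in log phase, and their part in the SIC1 value was not tested.

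**Figure D3:**
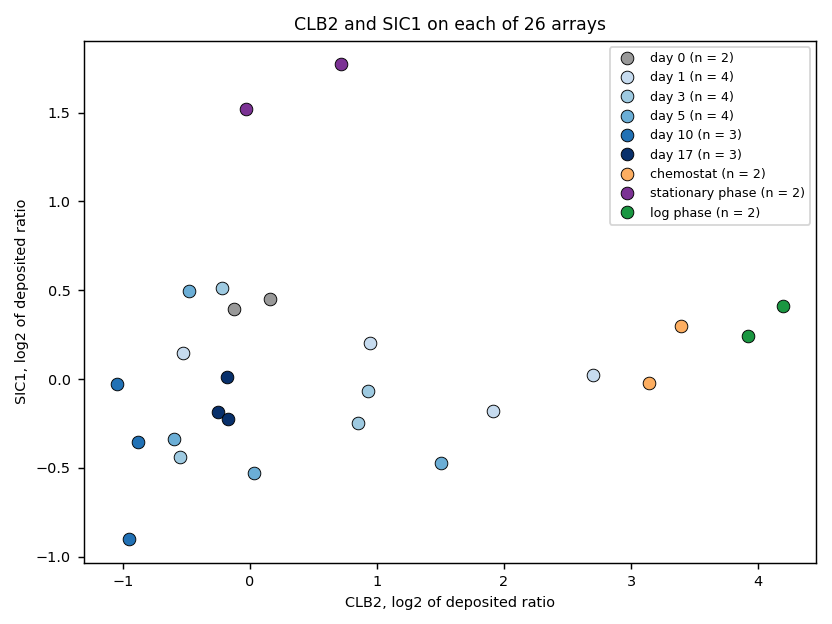
SIC1 (vertical axis) against CLB2 (horizontal axis), both as log2 of the deposited ratio, on each of 26 arrays, coloured by group. The 2 stationary-phase arrays lie alone at the top left, with SIC1 at 1.52 and 1.77, the chemostat and log-phase arrays at the right, with CLB2 at 3.14 to 4.20, and the immobilized arrays at the lower left and centre.

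Among free cells, stationary phase against log phase asks how these genes stand in starved cells. In stationary phase 5 of the 10 fell and 1 rose, where 21.7% of all genes fell and 22.8% rose, with a median of -1.66 against 0.04 over all genes. The change was -3.72 ± 0.73 for CLB2 (adjusted p = 0.000305), -2.83 ± 0.49 for CLB6 (9.11e-05), -2.93 ± 0.90 for CLB1 (0.00976), -2.18 ± 0.59 for CLN1 (0.00431) and -1.85 ± 0.58 for CLB4 (0.0108). SIC1 was the gene that rose, by 1.32 ± 0.33 (adjusted p = 0.00227). With quantile normalization repeated over the genes, CLN1, CLB4, CLB1 and SIC1 lost the call (SIC1 then at 0.79, adjusted p = 0.163). CLN1, CLB4 and CLB1 also lost it without stationary phase replicate 1 (adjusted p = 0.0723, 0.0789 and 0.0911), and CLB4 and CLB1 without log phase replicate 1 (CLB4 at an adjusted p of 0.0622, CLB1 at the threshold with -2.86).

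CLB3 at -0.88 ± 0.26 passed the adjusted p (0.00781) but not the 2-fold minimum between stationary and log phase. CLN3 at -1.35 ± 0.72 (adjusted p = 0.121), CLN2 at -1.47 ± 0.72 (0.0907) and CLB5 at 0.52 ± 0.36 (0.231) were not called. CLB3 passed the 2-fold minimum without stationary phase replicate 1, at -1.05 (adjusted p = 0.0145).

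The chemostat, in which cells divide at a rate set by the feed, was called different from log phase by limma in 0 of the 10 genes, and 0 of them had an unadjusted p under 0.05, where 2.28% of all genes were called. The size of difference that could be missed is given by the intervals. That of CLB2 was -0.79 (95% interval -2.31 to 0.72), that of CLB6 -0.58 (-1.59 to 0.44) and that of CLN1 0.12 (-1.11 to 1.34). For CLN2, CLB6, CLB3, CLB4, CLB1 and CLB2 both chemostat arrays lay below both log-phase arrays, and for CLN3 both lay above. With 2 against 2 arrays, 64.0% of all genes did not overlap, so 7 of 10 is near the background.

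Day 0 was already low in CLB2, CLB6, CLB1 and CLN1. Against log phase 5 of the 10 fell and 0 rose, where 17.8% of all genes fell and 18.6% rose. CLB2 stood at -0.12 and 0.16 on the day 0 arrays, CLB1 at -0.30 and -0.97, CLB6 at -0.38 and 0.10 and CLN1 at -0.13 and -0.38, all far below their log-phase arrays. CLB2 was 16.5-fold lower at day 0 than in log phase (log2 -4.04 ± 0.73, adjusted p = 0.000163). The changes were -3.45 ± 0.90 for CLB1 (adjusted p = 0.00386), -3.02 ± 0.49 for CLB6 (5.3e-05) and -2.83 ± 0.59 for CLN1 (0.000628). With quantile normalization repeated over the genes, CLN1 (adjusted p = 0.0573) and CLB1 (0.181) lost the call.

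CLB3 was the fifth gene that fell at day 0. It stood at -1.25 and -1.06, the lowest 2 of all 26 arrays, against 0.17 and 0.09 in log phase (-1.28 ± 0.26, adjusted p = 0.000473). CLN2 at -1.77 ± 0.72 (adjusted p = 0.0504) and CLB4 at -1.36 ± 0.58 (0.0588) just missed the threshold. SIC1 stood at 0.39 and 0.45 at day 0 against 0.24 and 0.41 in log phase, a difference of 0.10 ± 0.33, so the day 0 arrays do not share the high SIC1 of stationary phase. Day 0 and immobilized cells were both set against the same 2 log-phase arrays.

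At day 1 against day 0, limma called 0 of the 10 genes, where 20.3% of all genes were called (9.97% higher, 10.3% lower), and 2 of the 10 had an unadjusted p under 0.05. These were CLB3, at 0.84 ± 0.22 (adjusted p = 0.0077, under the 2-fold minimum), and CLB1, at 1.76 ± 0.78 (adjusted p = 0.0928). The 4 day 1 arrays were far apart. CLB2 stood at 0.94, 1.91, 2.70 and -0.53 at day 1, and CLB1 at 0.41, 1.35, 3.28 and -0.53. Replicate 4 is the lowest for both genes, and without it CLB1 (2.31, adjusted p = 0.0197) and CLB2 (1.83, adjusted p = 0.0109) passed the threshold. The difference between the 3′ and 5′ probe sets of control genes also ran from -0.36 to 0.61 on these 4 arrays, highest on replicate 3, and its part in the spread was not tested.

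Within the beads, CLB1, CLB2, CLN1 and CLB3 differed among days 1 to 17 (limma's F-test, adjusted over all genes), and 20.9% of all genes did so. CLB2 averaged 1.26 ± 1.39 at day 1, 0.25 ± 0.75 on the day 3 arrays, 0.11 ± 0.96 at day 5 (SD, n = 4 each), -0.96 ± 0.08 at day 10 and -0.20 ± 0.04 on those of day 17 (n = 3 each). The range of the day means was 2.22 for CLB2 (adjusted p = 0.0448) and 2.87 for CLB1 (adjusted p = 0.0313). CLB1 averaged 1.13 ± 1.62 at day 1, 0.52 ± 0.76 on the day 3 arrays, 0.19 ± 1.38 at day 5, -1.74 ± 0.27 on the day 10 arrays and -0.30 ± 0.32 at day 17. Both mitotic cyclins were thus highest at day 1 and lowest at day 10.

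At day 10, CLB1 stood at -1.54, -2.05 and -1.63 and CLN1 at -1.0, -2.33 and -1.06. CLN1 averaged 0.43 ± 1.08 at day 1, 0.20 ± 0.18 on the day 3 arrays, 0.10 ± 0.56 at day 5, -1.46 ± 0.75 on the day 10 arrays and -0.14 ± 0.54 at day 17, a range of 1.90 (adjusted p = 0.0253). The day 10 arrays of CLN1, CLB1 and CLB2 lie below all other arrays, and 7.93% of all genes have day 10 apart from the rest in either direction. CLB3 ran the other way, with -0.31 ± 0.36 at day 1, -0.14 ± 0.20 on the day 3 arrays, -0.02 ± 0.14 at day 5, 0.72 ± 0.34 on the day 10 arrays and 0.24 ± 0.20 at day 17 (range 1.03, adjusted p = 0.00656). Its 3 day 10 arrays, at 0.38, 0.71 and 1.07, overlap those of day 17 and of no other group.

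These 4 calls rest on few arrays. Day 10 replicate 3 and day 17 replicates 2 and 3 had next to no signal of the added dap control RNA (-4.94, -5.20 and -4.98 on the log2 scale). Without them all 4 calls were lost, in a fit with a single array at day 17. The ranges of the day means were then no smaller for CLN1 (2.12), CLB1 (2.92) and CLB2 (2.22), and smaller for CLB3 (0.86). Arrays of days 3 and 5 with the same number deviated together, and with the replicate number as a block CLB1 (adjusted p = 0.0634) and CLB2 (0.0651) lost the call. All 4 were also lost with quantile normalization repeated over the genes (adjusted p of 0.127 for CLN1, 0.170 for CLB1 and 0.241 for CLB2, and a range of 0.84 for CLB3). CLB2 lost its call without any of 11 arrays (day 1 replicates 1 to 3, day 3 replicate 4, day 5 replicate 2 and all arrays of days 10 and 17, adjusted p between 0.0513 and 0.124). CLB1 lost it without day 1 replicate 2 (adjusted p = 0.0557) or without replicate 1, 2 or 3 of day 10 (0.0688, 0.147 and 0.101). CLN1 lost it without day 10 replicate 2 (0.231) or 3 (0.0647). CLB3 lost it without day 10 replicate 3 (0.86, adjusted p = 0.0544), and its range fell under 1 without day 1 replicate 1 (0.996) or 2 (0.90).

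Between day 17 and day 1, limma called 0 of the 10 genes, where 0.294% of all genes were called, and 2 of the 10 had an unadjusted p under 0.05. CLB2 stood at -1.46 ± 0.56 (adjusted p = 0.165), CLB1 at -1.42 ± 0.69 (0.248) and CLB3 at 0.55 ± 0.20 (0.146). Without day 1 replicate 4, CLB2 (-2.05, adjusted p = 0.00581) and CLB1 (-1.98, adjusted p = 0.0404) were called. For CLN2, CLN3, CLB4, CLB5, CLB6 and SIC1 the day means spanned between 0.37 and 0.72, and none was called.

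Some of the spread within a day followed the array number. At days 3 and 5, CLN3 lay between -1.29 and -0.62 on the 4 arrays numbered 1 and 2 and between -0.01 and 0.94 on the 4 numbered 3 and 4. CLN2 lay between -0.97 and -0.08 on the first and between 0.32 and 1.24 on the second, and CLB4 between -1.42 and -0.16 and between 0.27 and 0.67. The arrays of the 2 number pairs do not overlap for these 3 of the 10 genes, nor for 31.4% of all genes, so the split is not particular to the cyclins. The mean difference between 3′ and 5′ probe sets moved with them, at -0.22 to 0.10 on arrays numbered 1 and 2 and 0.28 to 0.57 on those numbered 3 and 4, and its part in the values was not tested. CLB2, at -0.48 to 0.93 and -0.60 to 1.5, and SIC1, at -0.53 to 0.51 and -0.47 to -0.25, overlapped between the number pairs.

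On the 6 immobilized arrays whose 3′ minus 5′ difference lay below 0, as on all free-cell arrays, CLN3 no longer passed against stationary phase (0.77, adjusted p = 0.161). CLB4 passed against log phase on them (-1.30, adjusted p = 0.00397) and CLN2 against the chemostat (-1.41, adjusted p = 0.0172). This subset was chosen after seeing the data and holds no array of day 17, the day with the highest CLN3 mean, so the days in the mean changed with it. All 6 arrays are numbered 1 or 2, so RNA quality and array number cannot be told apart in it. The 10 immobilized arrays numbered 1 and 2, also a later choice, gave the same gains. CLB4 passed against log phase (-1.31, adjusted p = 0.00197) and CLN2 against the chemostat (-1.25, adjusted p = 0.0187). CLN3 stayed called against stationary phase on those 10. The 8 immobilized arrays numbered 3 and 4, a later choice too, hold a single array each of day 10 and day 17. On them CLN2 stood at -0.99 against log phase, under the 2-fold minimum, and CLB1 lost its call against the chemostat, at -2.17. CLB4 stood at 1.05 against stationary phase on these arrays and gained a call. On the 6 arrays below 0, CLB2, CLB6, CLB1 and CLN1 remained called against log phase and the chemostat, and SIC1 against stationary phase.

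The order of the 9 group means differed between genes. For CLB2, CLB1, CLB6, CLN2 and CLB4 log phase came first and the chemostat second, and for CLN1 the chemostat came first and log phase second with overlapping arrays. Below these, the groups of CLB6 did not separate: day 1, day 5, stationary phase, day 17, day 3, day 0 and day 10 followed in that order, and each overlapped its neighbour. For CLB2 day 17 and day 10 came last and neither overlapped the group before it. SIC1 had stationary phase first, then day 0, log phase, the chemostat, day 1, day 3, day 17, day 5 and day 10, and below stationary phase each overlapped its neighbour. CLN3 and CLB4 had stationary phase last and CLB3 day 0 last, each without overlap with the group before it. CLB5 ran from day 10 at 0.42 ± 0.15 (SD, n = 3) to the chemostat at -0.47 ± 0.07 (SD, n = 2), with every pair of neighbours overlapping.

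Related cyclins on the same array allow a comparison within a sample. The mean difference CLB5 minus CLB6 was 0.07 ± 0.84 on the 18 immobilized arrays (SD) and -3.25 on the 2 log-phase arrays, where it was -2.99 and -3.52. All 18 immobilized arrays lay above both, a change of 3.33 (two-sided exact permutation test over arrays, p = 0.0105, the smallest this design gives; adjusted p = 0.0316 over 6 pairs chosen after seeing the data). CLB3 minus CLB4 changed by 0.96 and CLB1 minus CLB2 by 1.14 (exact p = 0.0211 and adjusted p = 0.0316 for each). CLN1 minus CLN2 was -0.04 ± 0.95 in immobilized cells and 1.32 in log phase (change -1.37, exact p = 0.0737, adjusted p = 0.0884).

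The 2 other pairs are neighbours in the genome. In the RefSeq gene order (assembly R64) CLB1 lies beside CLB6, and CLB2 beside CLB5, each pair transcribed towards each other from opposite strands, so that a mitotic cyclin gene faces an S-phase one. CLB1 minus CLB6 changed by 0.15 between immobilized and log-phase cells (exact p = 0.947), with a mean of 0.09 ± 1.08 on immobilized arrays (SD) and -0.06 on log-phase arrays. CLB2 minus CLB5 changed by -4.32 (exact p = 0.0105, adjusted p = 0.0316), with means of 0.12 ± 1.38 and 4.44. The tests of pairs reuse the arrays of the single-gene differences and were chosen after seeing them, so they are not separate evidence. CLB1 and its neighbour CLB6 thus both fell, with no detectable change of their mean difference, while CLB2 fell and its neighbour CLB5 was not called. CLB1 minus CLB6 was not level within the beads, at 0.64, 2.27, 1.82 and -0.67 on the day 1 arrays and -1.30, -1.34 and -1.18 at day 10.

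**Figure D4:**
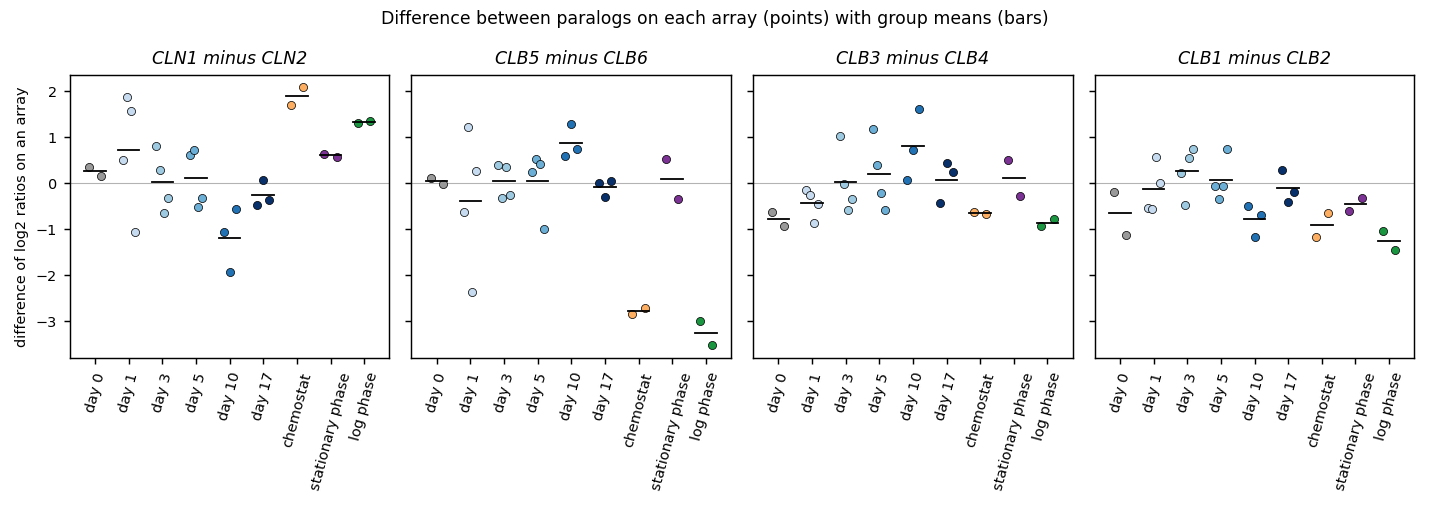
Difference of log2 ratios between related cyclin genes (vertical axis) on each of 26 arrays by group, with points for arrays and bars for group means. CLB5 minus CLB6 lies near -3 in the chemostat and log phase and between -2.36 and 1.29 on the immobilized arrays, while CLN1 minus CLN2 overlaps between immobilized and log-phase arrays.

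Across the 26 arrays the genes most like CLB2 by Pearson correlation were CHS2 (0.96), the chitin synthase of the septum, DUT1 (0.96), which makes the precursor of dTMP, and SWI5 (0.96), the transcription factor of SIC1. Those most like CLB6 were THR4 (0.94) of threonine synthesis, CSI2 (0.93) and CDC5 (0.93), the polo kinase of mitosis. Those most like CLB1 were PHO3 (0.93), RPS29A (0.93) and ERP2 (0.92), and those most like CLN1 were SKG6 (0.96), TYS1 (0.94) and DUT1 (0.93). Those most like CLB4 were CDC45 (0.90), a replication factor, PAT1 (0.88) and TUB2 (0.87), the beta-tubulin gene. For CLN2 they were PHO91 (0.92), CSR1 (0.90) and SHB17 (0.89), for CLN3 YBL081W (0.86), RSC1 (0.83) and THI7 (0.83), for CLB3 YJL193W (0.92), SCP1 (0.89) and SCW10 (0.89), and for CLB5 RDL1 (0.87), TEN1 (0.84) and MFA1 (0.83). The genes most like SIC1 were TAF13 (0.91), BEM1 (0.87) and PEX14 (0.87). Among the 10 genes, CLB1 and CLB2 correlated at 0.92, CLN1 with CLB1 at 0.92, CLN1 with CLB2 at 0.91 and CLN1 with CLB6 at 0.90. CLN2 correlated with CLB4 at 0.81 and with CLN1 at 0.61, CLB5 with CLB1 at -0.72, and SIC1 with CLB2 at 0.15 and with CLB3 at -0.64. The arrays share groups, and those of log phase and the chemostat weigh heavily in the values of CLN1, CLB6, CLB1 and CLB2. Other groups stood furthest out for SIC1 (stationary phase, mean 1.64), CLN3 (stationary phase, -1.46) and CLB3 (day 0, -1.15, and day 10, 0.72). All these correlations are descriptions.

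Of the genes that act on cyclins, CDC28, the kinase itself, fell in immobilized against log-phase cells (-1.002 ± 0.24, adjusted p = 0.00183), only just past the 2-fold minimum. The other 3 of 4 kinase and activator genes were not called (median of the 4, -0.53). Against log phase 14.7% of all genes fell and 15.9% rose, which is the background for the counts of the gene lists that follow. Of 17 measured transcription factor genes that set the phase of cyclin and SIC1 transcription, 5 fell and 1 rose. SWI5 stood at -3.68 ± 0.45 (adjusted p = 2.75e-06), the repressor gene YOX1 at -2.18 ± 0.51 (0.00155) and FKH1, of the forkhead factors that act on CLB2, at -2.05 ± 0.24 (1.9e-06). The median of this list was -0.55, against -0.01 over all genes. Against the chemostat 5 of the 17 fell and 0 rose, where 9.94% of all genes fell, with SWI5 at -2.96 ± 0.45 (adjusted p = 8.13e-05) and NRM1, a repressor of MBF, at -1.72 ± 0.31 (0.000383). Of 11 other regulators 4 fell and 2 rose against log phase, with a median of -0.71: CDC5 at -2.42 ± 0.35 (adjusted p = 1.93e-05) and FAR1, an inhibitor of Cln-Cdc28, at -1.85 ± 0.49 (0.00402) were lower, and MIH1, the phosphatase that activates Cdc28, was higher at 2.21 ± 0.40 (0.000169). Against stationary phase 1 of the 11 rose and 1 fell, where 11.8% of all genes rose and 14.4% fell, with a median of -0.07. CDC6, which loads the replicative helicase and also binds Clb-Cdc28, rose by 1.39 ± 0.40 (adjusted p = 0.00746), and SWE1, the kinase that inhibits Clb-Cdc28, stood at -1.03 ± 0.27 (0.00377).

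Of 21 genes of the ubiquitin ligases SCF and APC, which destroy Sic1 and the cyclins, 2 rose and 0 fell against log phase, with a median of 0.22, a share below the 15.9% of all genes that rose. CDH1, the APC activator of G1, was among the risen genes at 1.29 ± 0.21 (adjusted p = 7.48e-05). Against stationary phase 7 of these 21 fell and 0 rose (median -0.48, against -0.06 over all genes), where 14.4% of all genes fell, with the APC subunit genes DOC1 at -1.86 ± 0.31 (5.95e-05), MND2 at -1.73 ± 0.30 (9.3e-05) and CDC16 at -1.43 ± 0.20 (1.01e-05). Of 10 Pho85 cyclin genes, which serve another kinase, 1 fell and 1 rose against log phase, shares below those of all genes, with a median of 0.52: PCL1 stood at -3.04 ± 0.70 (adjusted p = 0.00144) and PCL5 at 2.92 ± 0.29 (1.5e-07). Of the 17 transcription factor genes 3 fell and 0 rose in immobilized against stationary-phase cells, where 14.4% of all genes fell and 11.8% rose. The median of that list was 0.22, against -0.06 over all genes. The 3 were WHI5, the repressor that Cln3 relieves (-2.65 ± 0.80, adjusted p = 0.0106), FKH1 (-1.73 ± 0.24, 1.12e-05) and SWI5 (-1.18 ± 0.45, 0.0396).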

How the data were processed

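The 26 arrays were summarised with RMA, per the submitters' processing notes, which name no version, and the authors deposited a linear ratio per probe set. Its values run from 0.0102 to 159 and the medians of single probe sets over all arrays from 0.9905 to 1.047, so each ratio is taken to be set against the probe set's own median, a step found from the values. Log2 of the deposited ratio was taken here. Of 10928 probe sets, 5498 were tied by GEO's platform annotation to 1 gene each and stood for 5449 genes. For 47 genes with several probe sets that of highest mean ratio was kept, 4 genes with missing values were left out, and 3683 probe sets without a symbol, 1 with several and 1746 matched to no Saccharomyces cerevisiae gene were not used.

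One limma 3.58.1 model (R 4.3.3) of 9 group means was fitted over 5445 genes with lmFit and eBayes, and p-values were adjusted by Benjamini-Hochberg over all of them. A gene was called at an adjusted p under 0.05 and a log2 difference of at least 1. With no counts in array data, precision depends on how many arrays a group has.

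The 10 genes and the 5 gene lists were chosen with earlier results of these data known. The named genes are the 10 members, up to 3 list genes with the largest change per comparison and the 3 genes most like each member over the arrays. Results of 1 further list are not reported here.

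Equal replicate numbers paired arrays of days 3 and 5 (correlations of deviations of 0.864, 0.548, 0.854 and 0.793). Between days 1 and 3 the correlations were 0.188, 0.444, -0.034 and 0.037. For the other groups compared they lay between -0.321 and 0.264. Days 1, 3 and 5 enter the test of differences among days, the immobilized mean and the permutation tests, so their arrays may not be independent there. The replicate number as a block is given beside the test among days. A filter on dim probe sets cannot be run on ratios, so genes with an SD under 0.25 were left out in its place. Plots were made in Python 3.11.15 using matplotlib 3.10.9.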

Additional observations from a re-analysis of the deposited data

Results flagged for a closer look

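Day 5 replicate 4 lay far above the other 3 arrays of its day for 3 of the 10 genes. CLN1 stood at 0.93 there, against -0.25 to -0.08 on the others, CLB6 at 0.90, against -0.20 to -0.09, and CLB1 at 2.25, against -0.66 to -0.31. The 3 values are of 1 array, so they are not separate observations. In all, 30 sets of 4 values were looked at, those of the 10 genes at day 1, day 3 and day 5. Chance alone sets apart about 1 in 20 such sets, but the genes share arrays, so the 30 are not separate looks. The mean 3′ minus 5′ difference of this array was 0.57, the highest of its day, and its part in the values was not tested.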

How the results depend on the processing

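Of 205 counts of called members under alternative settings, 184 stayed within 1.5 times the main count and 21 did not, and of 2050 values of single members 71 lost the call, 43 gained it and 0 reversed. CLB2, CLB6 and CLN1 stayed called for immobilized cells against log phase and the chemostat, and SIC1 against stationary phase, in all 35 alternatives. Quantile normalization repeated over the genes gave 3 members for immobilized against log phase, 1 for immobilized against stationary phase, 2 for stationary against log phase, 3 for day 0 against log phase and 0 among days. Day 1 against day 0 gave 1 member without a fold minimum (CLB3) and 1 with array weights (CLB2), whose estimation stopped before it converged, and day 17 against day 1 gave 1 with them (CLB2). A model of just the compared groups gave 1 member for immobilized against stationary phase and 1 among days. The replicate block gave 1 and 2 in these comparisons (CLN3 was lost at 1.12, and CLB1 and CLB2), and otherwise it left the counts within 1.5 times. For day 0 against log phase a block with crossed numbers gave 7 members and 2046 genes, the replicate block 7 and 2041, the model without it 5 and 1980. Of settings chosen after seeing the data, the immobilized arrays with a 3′ minus 5′ difference below 0 gave 1 member against stationary phase, and leaving out 3 arrays of days 10 and 17 with next to no dap spike gave 0 members among days. Leaving out 1 array at a time gave 0 to 4 members among days, 0 to 2 for day 1 against day 0, 0 to 2 for day 17 against day 1, 3 to 4 for immobilized against the chemostat, 4 to 6 against log phase, 2 against stationary phase, 4 to 6 for stationary against log phase, 5 for day 0 and 0 for the chemostat against log phase. A lone array of a group was then assumed to vary like the other groups.

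Counts over all genes moved more. In the order immobilized against log phase, stationary phase and chemostat, then stationary phase, chemostat and day 0 against log phase, day 1 against day 0, day 17 against day 1 and among days, limma called 1662, 1431, 1061, 2421, 124, 1980, 1106, 16 and 1136 genes, and 516, 562, 557, 623, 10, 657, 429, 51 and 346 with quantile normalization. Without a fold minimum the first 3 were 2704, 2391 and 1845. Array weights gave 360 for chemostat against log phase, 759 for day 17 against day 1 and 2247 among days. With only the groups compared there were 454 for day 1 against day 0, 0 for day 17 against day 1 and 695 among days. For day 17 against day 1 the replicate block gave 196, a trended and robust prior 7 and leaving out the dap-poor arrays 0, which left 121 among days. Leaving out 1 array gave 39 to 116 for chemostat against log phase, 667 to 1333 for day 1 against day 0, 0 to 657 for day 17 against day 1, 284 to 1686 among days and 418 to 1153 for immobilized against the chemostat. The causes were not tested.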
